A study of Danio rerio with 6 samples.

Results

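The gene oaz1a encodes an ornithine decarboxylase antizyme of the zebrafish. It was examined here through every array target that carries its symbol and through the single probes of those targets. The files give the older symbol oaz1, which RefSeq lists as a synonym of oaz1a. The gene had 2 targets among the 38489 on the array, and 6 probes among 113549. The gene was selected on these same intensities, for a signal high in some brains and near background in others, so its levels and its difference between groups are described without a test.

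The arrays were of the one-colour Cy3 kind and each held RNA from the brain of 1 female zebrafish of the AB strain, aged 12 months. The lead group consists of 3 females kept as embryos in 100 ppb lead acetate from before 2 hours until 72 hours after fertilization. The control group consists of 3 females handled alike at 0 ppb. All fish were raised without added lead afterwards. The study asked whether the embryonic exposure is followed by expression differences in the aged brain.

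Antizymes bind ornithine decarboxylase, the enzyme that makes putrescine, and deliver it to the proteasome without the need for ubiquitin. They also restrain the uptake of polyamines into cells. Translation of a whole antizyme needs a ribosomal frameshift that polyamines promote, so that polyamine levels feed back on their own synthesis. Antizyme inhibitors resemble ornithine decarboxylase and take antizyme away from it.

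Signal from oaz1a was present in 1 lead brain and 1 control brain, and lay at background in the other 4 brains. The target OTTDART00000011806 lies on chromosome 22 from 15014111 to 15018543, in the coordinates of the files, whose assembly is not given for targets of this name type. Its intensity was 206, 22491 and 226 in lead replicates 1, 2 and 3, against 232, 287 and 36323 in control replicates 1, 2 and 3. Lead replicate 2 and control replicate 3 were thus high, the remaining brains were low, and the groups overlapped.

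The target OTTDART00000011829 follows after a gap of 1 base, from 15018545 to 15019914 on chromosome 22. Its intensity was 227, 11784 and 176 in lead replicates 1, 2 and 3, against 162, 167 and 21580 in control replicates 1, 2 and 3. Both targets were therefore high in one and the same pair of brains.

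Background was set for each array at the 95th percentile of its random control probes, which match no gene. That level was 1312, 1090 and 1123 in the lead arrays, against 948, 1004 and 1260 in the control arrays. In the low brains oaz1a stood well under it. On the first target 38.3% and 45.9% of the random probes were dimmer than oaz1a in the low lead brains, against 50.6% and 61.3% in the low control brains. On the second target these shares were 44.1% and 29.4% in lead, against 25.7% and 26.4% in control. In those 4 brains oaz1a therefore has only an upper bound. Measured against the higher of background and the low brain's own signal, lead replicate 2 was at least 17.1-fold above the other lead brains on the first target and at least 8.98-fold on the second. In the same way control replicate 3 was at least 36.2-fold and at least 21.5-fold above the other control brains. In whole tissue, fewer cells that contain a transcript and less transcript per cell cannot be told apart.

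Each of the 6 probes had its highest values in lead replicate 2 and control replicate 3. The probe OTTDART00000011806P00056 read 159, 12050 and 174 in lead, against 145, 162 and 31484 in control. Probe OTTDART00000011806P00136 read 345, 25303 and 285 in lead, against 276, 326 and 40066 in control. The third probe of this target, OTTDART00000011806P00139, read 164, 22809 and 212 in lead, against 232, 287 and 36323 in control. All of them were over background in 2 brains.

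On the second target the probe OTTDART00000011829P00434 read 227, 12829 and 145 in lead, against 134, 160 and 19823 in control. Probe OTTDART00000011829P00749 read 122, 5677 and 122 in lead, against 112, 115 and 17240 in control. The probe OTTDART00000011829P00028 read 637, 23026 and 844 in lead, against 638, 1009 and 42167 in control. It was the only one of the 6 over background in 3 brains, control replicate 2 being marginally above its background of 1004.

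**Figure D1:**
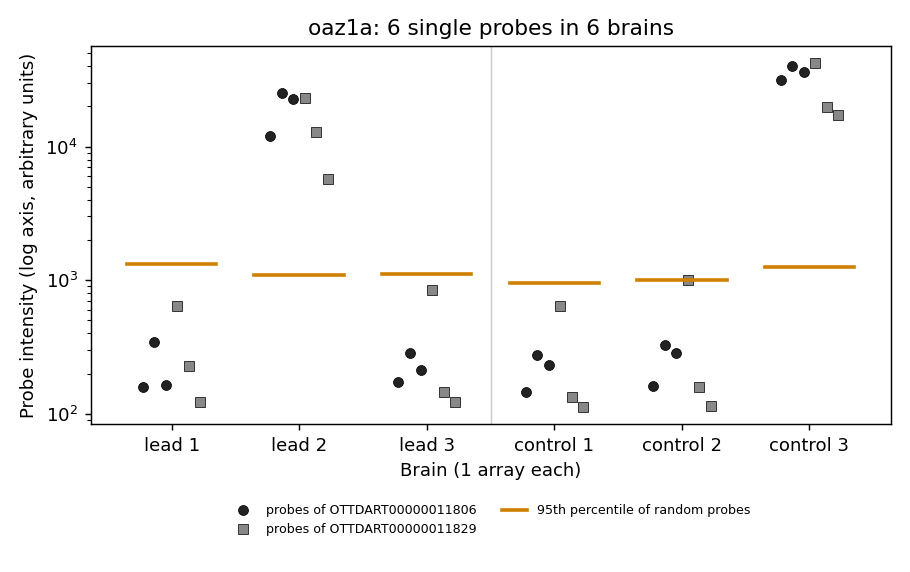
Intensity of the 6 oaz1a probes (vertical axis, log scale, arbitrary units) in each of 3 lead and 3 control brains, circles for the probes of OTTDART00000011806 and squares for those of OTTDART00000011829, with an orange bar at the 95th percentile of the random probes of that array. In lead 2 and control 3 the probes lie between 5677 and 42167, and in the other brains between 112 and 1009.

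The height of the signal also differed between the 2 brains that had it. Lead replicate 2 was below control replicate 3 on each probe, with a ratio of lead replicate 2 over control replicate 3 between 0.329 and 0.647. The ratio was lowest on OTTDART00000011829P00749 and next lowest on OTTDART00000011806P00056, at 0.383. The remaining probes had ratios from 0.546 upward. With 1 array per brain these ratios have no replicate error.

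Between the groups the values of oaz1a did not separate. On the log2 scale the first target averaged 9.99 ± 3.87 in lead brains and 10.39 ± 4.12 in control brains (SD, n = 3 each). The second averaged 9.60 ± 3.40 in lead brains and 9.71 ± 4.06 in control brains. Lead minus control was −0.40 ± 3.27 and −0.11 ± 3.06 (SE of the difference), far less than the spread within each group. The sign of the difference rests on single brains. Without control replicate 3 it was 1.97 and 2.24, and without lead replicate 2 it was −2.64 and −2.07. Neither target is among the altered targets in the authors' deposited table, which lists 94 of the 38489 targets.

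Few targets on these arrays varied among brains as widely as oaz1a. Its log2 values spanned 7.46 on the first target and 7.05 on the second, where the median target spanned 0.61. These are the ranges at rank 2 and rank 4 among all targets. The pooled SD within groups ranked 2 and 3 among all targets. The gene was selected for such a spread among brains, so these ranks restate the selection and are a description only.

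To count signals of this kind, a target was taken as on or off when its largest gap between neighbouring brains was at least 3 log2 units and that gap also parted the brains over background from those under it. This held for 47 targets, which is 0.122% of all, and for 23 without control replicate 1. The gaps of oaz1a were 6.29 and 5.70 log2 units, at ranks 3 and 6 among the largest gaps of all targets, which likewise restates the selection. Among the 47, a single brain was high in 29, of which 26 were high in control replicate 1 alone. There were 6 targets with 2 brains high, and 3 of these were high in lead replicate 2 and control replicate 3: both oaz1a targets and ENSDART00000088996.

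ENSDART00000088996, which has no gene name in the files (Zv7 chromosome 21, 40959653 to 40961481), read 524, 6582 and 494 in lead, against 453, 466 and 4973 in control. It was high in the same brains as oaz1a, but with lead replicate 2 above control replicate 3. Of single probes, 330 had such a gap and 7 of them had these brains high, of which 5 belong to oaz1a and 2 to other targets. The pair of brains was taken from oaz1a itself, so its own 5 probes are no separate support.

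**Figure D2:**
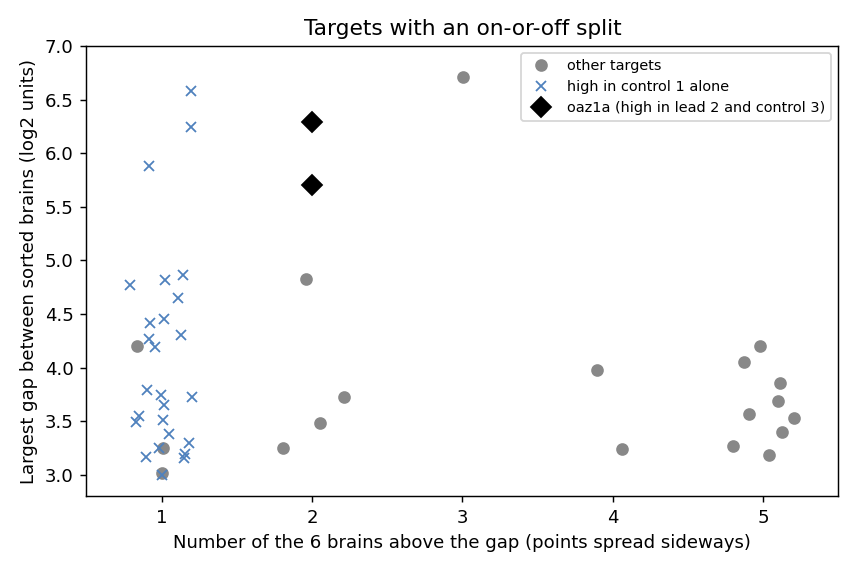
The 47 on-or-off targets, by the number of brains above the gap (horizontal axis) and the size of the gap in log2 units (vertical axis), with crosses for the 26 high in control replicate 1 alone and black diamonds for the oaz1a targets. The diamonds lie at 6.29 and 5.70 in the column of 2 brains.

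None of the 24 measured genes of the polyamine pathway other than oaz1a had an on-or-off gap (0 of 24, against 0.122% of all targets). With such gaps so rare, a count of 0 says little about these genes. The paralog oaz1b is covered by ZV700S00005050 (unplaced Zv7 scaffold), whose clone name RefSeq lists under oaz1b. The match of homologue names ignores the final letter of the symbol, so oaz1b rather than oaz1a rests on the clone name alone. Its intensity was 37263, 35108 and 35294 in lead, against 36157, 37436 and 36745 in control. It spanned 0.09 log2 units, the smallest range of the 24 genes. Lead minus control was −0.04 ± 0.11 (limma adjusted p = 0.984). These intensities lie near the top of the scale, where an intensity of 36323 was above 99.3% of targets in control replicate 3. Whether differences are narrowed at that height was not tested. The other antizyme genes, oaz2a and oaz2b, were not paired with a target here.

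The antizyme inhibitor azin1b was over background in every brain on each of its 3 targets. These spanned 0.31 (TC259318), 0.38 (OTTDART00000021459) and 0.63 log2 units (OTTDART00000019340). The first, TC259318, read 28166, 28680 and 30577 in lead, against 24729, 27019 and 29411 in control. Its difference was 0.11 ± 0.13 (limma adjusted p = 0.959). On the other azin1b targets the difference was −0.02 and 0.01 in turn. Its paralog azin1a, on ZV700S00003925, varied more, at 1793, 1560 and 2962 in lead, against 1524, 2773 and 2789 in control. Lead replicate 2 was lowest in its group for azin1a while control replicate 3 was highest in its own, so this gene did not follow oaz1a.

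The target of antizyme, ornithine decarboxylase, is encoded by odc1. Its target ZV700S00005660 (Zv7 chromosome 17, 51949336 to 51961445) read 10096, 10306 and 8193 in lead, against 11179, 8002 and 8852 in control. Its difference was 0.04 ± 0.18 (limma adjusted p = 0.987), and neither of the oaz1a-high brains stood apart. Decarboxylated S-adenosylmethionine for the later steps comes from amd1, which read 5000, 3068 and 5843 in lead, against 5031, 4901 and 7148 in control. Lead replicate 2 was the lowest brain for amd1 and control replicate 3 the highest.

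Spermidine synthase srm had 4762, 5648 and 4948 in lead, against 4284, 4462 and 4288 in control. The 3 lead brains all lay above the 3 control brains, by 0.23 ± 0.13, which missed the threshold (limma unadjusted p = 0.107, adjusted p = 0.958). Spermine synthase sms had 26855, 26341 and 25014 in lead, against 24006, 25586 and 23061 in control, a difference of 0.11 ± 0.12 (limma adjusted p = 0.959).

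Most of the 24 genes did not set the same brains apart as oaz1a, in either direction. Lead replicate 2 and control replicate 3 were the 2 lowest brains for 4 genes (16.7%, against 9.6% of all targets) and the 2 highest for 2 genes (8.3%, against 7.9% of all targets). Lowest there was spermine oxidase smox, which turns spermine back into spermidine, at 26873, 20304 and 23822 in lead, against 24306, 24772 and 19499 in control. The amino acid transporter subunit slc3a2a likewise read 8222, 5399 and 9146 in lead, against 10185, 7843 and 5699 in control. The others were mtap, which salvages a by-product of polyamine synthesis, and eif5a2, a translation factor that receives the spermidine-derived residue hypusine. The targets of eif5a2 did not agree on this. OTTDART00000027478 read 18075, 15142 and 17553 in lead, against 18303, 17071 and 14292 in control, while on the overlapping OTTDART00000027475 control replicate 3 was the highest brain, at 13499, 12402 and 12871 in lead, against 13308, 12816 and 14215 in control. The 2 genes highest there were arg1, which makes ornithine, and dohh, which completes hypusine. The ranges were small beside that of oaz1a, at 0.46 log2 units for smox and 0.92 for slc3a2a.

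**Figure D3:**
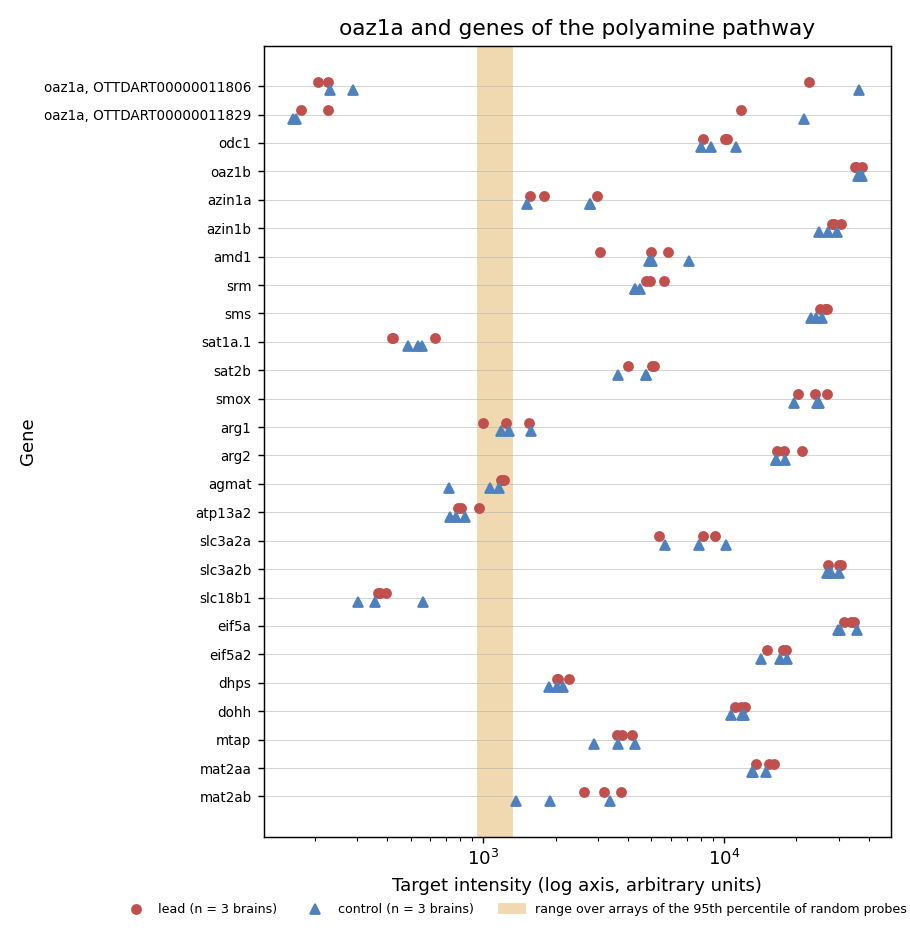
Intensity of the 2 oaz1a targets and of 1 target for each of 24 polyamine pathway genes (horizontal axis, log scale, arbitrary units), with red circles for 3 lead brains and blue triangles for 3 control brains, and a shaded band from 948 to 1312 for the background of the 6 arrays. Only the oaz1a rows have brains on both sides of a wide gap, and for the other genes the range is at most 1.45 log2 units.

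As a list, the polyamine pathway showed no call for lead against control. Of 33 genes listed besides oaz1a, 24 were measured, 19 of them over background on every array. In limma 0 rose and 0 fell at an unadjusted p under 0.05, and 0 passed adjustment over all targets (smallest adjusted p = 0.958). Over all 38489 targets the share at an unadjusted p under 0.05 was 4.41% (2.57% higher and 1.83% lower), and the share past adjustment was 0.00%, with a smallest adjusted p of 0.152. At so small a share over all targets, a count of 0 among 24 genes says little about the pathway. The median difference was 0.06 in the list and 0.00 over all targets. Differences ranged from −0.33 for amd1 to 0.61 ± 0.33 for mat2ab, a methionine adenosyltransferase (limma unadjusted p = 0.106, adjusted p = 0.958). Without control replicate 2, mat2ab stood at 0.96 ± 0.23 (limma unadjusted p = 0.00584, adjusted p = 0.455). The acetyltransferase sat1a.1, the lysosomal polyamine exporter atp13a2 and the vesicular polyamine transporter slc18b1 lay under background on every array.

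The nearest genes on either side of oaz1a on chromosome 22 that had a symbol and a target of the same name type did not share its signal. On one side dot1l, a histone methyltransferase gene 68437 bases away, read 2718, 2329 and 4053 in lead, against 3075, 2546 and 2882 in control. Between it and oaz1a lie amh, which encodes anti-Müllerian hormone, and si:dkey-3k20.1. For amh the values were 385, 448 and 341 in lead, against 486, 404 and 554 in control, under background in every brain. The gene si:dkey-3k20.1 was under background too, at 463, 279 and 283 in lead, against 373, 660 and 264 in control.

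On the other side si:dkey-3k20.4, at 1969 bases the nearest of these genes, stood at 211, 180 and 195 in lead, against 170, 196 and 206 in control. Next came org at 341, 342 and 350 in lead, against 273, 296 and 279 in control, also under background in every brain. The neuronal membrane protein gene lingo3a, 138944 bases away, read 5287, 6160 and 5352 in lead, against 6852, 6377 and 5258 in control. None of these 6 genes had brains on both sides of its background. In the gene order of RefSeq on the assembly GRCz12tu, amh and dot1l likewise stand on one side of oaz1a and org and lingo3a on the other. The gene between org and oaz1a in that order, LOC141380319, was not paired with a target, so it was not measured.

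**Figure D4:**
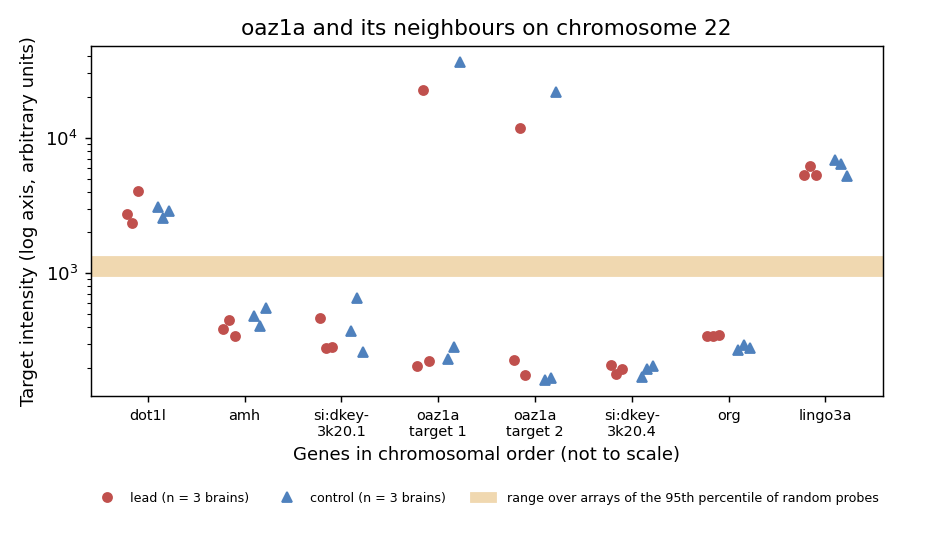
Intensity of oaz1a and of 3 named genes on each side (vertical axis, log scale, arbitrary units) in chromosomal order, not to scale, with red circles for 3 lead brains, blue triangles for 3 control brains and a shaded band from 948 to 1312 for background. For oaz1a 1 lead and 1 control brain lie above the band and the others below it, while each neighbour keeps all its brains on one side.

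Other genes with a symbol rarely matched the pattern at a similar size. Likeness was measured as Pearson's r with OTTDART00000011806 over the log2 values of the 6 brains. Because oaz1a has 4 low and 2 high brains, r mostly records whether lead replicate 2 and control replicate 3 lie apart from the rest, and it is given as a description. Of 4143 targets of other named genes that spanned at least 1 log2 unit, 29 reached 0.9 and 8 reached 0.95. How many unrelated targets would reach these values over only 6 brains was not computed. The counts therefore do not show that any of these genes shares a signal with oaz1a. The second oaz1a target stood at 0.996.

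The most alike was zgc:113625 (r = 0.976), at 676, 1195 and 779 in lead, against 771, 778 and 1480 in control. It spanned 1.13 log2 units and stayed near background. Only lead replicate 2 (background 1090) and control replicate 3 (background 1260) were over it. The largest excursions came from targets that the files name LOC796891 and LOC100002713. The LOC796891 target ENSDART00000098268 (r = 0.97; Zv7 chromosome 7, 60607681 to 60609510) read 579, 5978 and 850 in lead, against 455, 754 and 4321 in control. A target of the same name on Zv7 chromosome 15, ENSDART00000074016 (r = 0.957), read 239, 3904 and 330 in lead, against 188, 301 and 1841 in control. The LOC100002713 target ENSDART00000078727 (r = 0.961; Zv7 chromosome 5, 18503382 to 18510319) read 330, 3711 and 366 in lead, against 343, 228 and 2147 in control. All 3 were over background only in lead replicate 2 and control replicate 3, but unlike oaz1a they were higher in lead replicate 2 than in control replicate 3. Their largest gaps were 2.35, 2.48 and 2.55 log2 units, short of the 3 used above. ENSDART00000088996 had the same brains high in the same order. Whether it and the LOC796891 targets measure separate sequences was not tested, so they may not be separate matches.

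Of the 10 targets, 4 were over background in every brain. The adenylate cyclase gene adcy1a (r = 0.959) read 3400, 6388 and 3085 in lead, against 3515, 3235 and 5396 in control. For fezf2, a transcription factor of forebrain neurons (r = 0.954), the values were 1435, 3053 and 1717 in lead, against 1332, 1456 and 2680 in control. The transcription factor gene mafga (r = 0.947) read 1745, 4826 and 2113 in lead, against 1737, 2252 and 3774 in control. The fourth was PROKR1 (r = 0.948), at 3779, 5983 and 2675 in lead, against 3239, 2943 and 7281 in control. Each had its highest values in lead replicate 2 and control replicate 3, which follows from the choice by likeness. Their ranges were 1.05 to 1.47 log2 units. The remaining targets of the 10 were si:busm1-52i16.2 (0.957) and LOC100007181 (0.954), which spanned 1.08 and 1.16 log2 units.

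**Figure D5:**
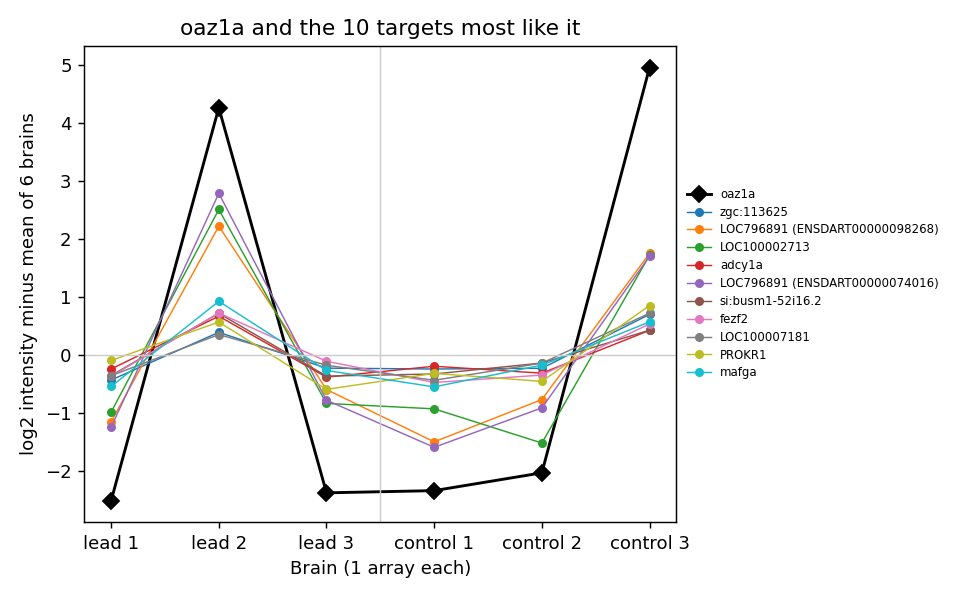
log2 intensity minus the mean of the 6 brains (vertical axis) for oaz1a (black diamonds) and the 10 targets most like it, in 3 lead brains at left and 3 control brains at right. All lines peak in lead 2 and control 3, which follows from choosing the targets by likeness to oaz1a. The span is 7.46 log2 units for oaz1a and at most 4.37 for the others.

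Among marker lists, all 9 measured brain markers were over background in every brain. On single arrays, 59.8% to 66.7% of all targets were over background, so the share over it in every brain is at most 59.8%. The brain markers go with the brain label but do not show that each dissection took the same tissue. The summed intensity of these markers was 262942 in lead replicate 2 and 261140 in control replicate 3, and between 273839 and 299400 in the other brains. Taken singly, 3 of the 9 markers had these as the 2 lowest brains (33.3%, against 9.6% of all targets). For 1, the synaptic gene syt1a, they were the 2 highest (11.1%, against 7.9% of all targets). The 3 lowest there were mpz, plp1a and the radial glia marker gfap, which read 25587, 11410 and 22772 in lead, against 17505, 19863 and 12004 in control. Not all related markers followed. For fabp7a, lead replicate 2 at 28964 was above control replicate 1 at 28771. For plp1b, lead replicate 2 was lowest at 34923, but control replicate 3 read 42693, above control replicate 1 at 39767. The summed skin list was lowest there too, with sums of 62449, 37817 and 49156 in lead, against 87351, 46043 and 44854 in control. However, these were the 2 lowest brains for only 4 of its 10 measured genes (40%, against 9.6% of all targets). Of these 4, cldni was under background in every brain. Other skin genes went otherwise, such as krt97, whose highest brain was control replicate 3 at 3085. The part of these differences in the oaz1a signal was not tested. Control replicate 1 stood apart on the pituitary list, with a sum of 92461 and all 9 genes over background, against 8343 to 18726 and 1 to 3 genes in the other brains. The exception was prl, which was highest in lead replicate 3, at 6039 against 2233 in control replicate 1. Sums of red blood cell genes were 48337 to 98653 in lead, against 103803 to 114955 in control. Muscle genes summed to 8891 to 13478 in lead, against 9306 to 14196 in control, and eye genes to 4778 to 5320 in lead, against 4433 to 4671 in control. No brain had more than 4 of the 10 muscle genes or 2 of the 9 eye genes over background. The eye sums thus came mostly from genes under background. All 4 measured ovary markers lay under background in every brain.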

How the data were processed

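Each array came with a deposited file of intensity values, 1 for each target, which the authors summarised from up to 3 probes by RMA (version not stated), per the submitters' processing notes. A second deposited table holds the intensity of 113549 probes and of 27114 random control probes. The authors' deposited table of altered targets gives log2 ratios of lead over control, per its header. The files name 1 scan for the 6 arrays, with image numbers 7 to 9 for lead and 10 to 12 for control, so image number and group cannot be told apart.

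Here log2 was taken without a filter, and targets were paired with genes through RefSeq accessions, symbols and synonyms. For the polyamine list, clone names in RefSeq were used too where the homologue's name matched (7 of 24 genes). Clone and symbol named one gene in 91.4% of 2526 targets that had both. The target with the highest mean stood for its gene. Lead was compared with control by limma 3.58.1 in R 4.3.3 (empirical Bayes, two-sided), with Benjamini-Hochberg adjustment over 38489 targets, and the fit was tested on simulated data. There 50 targets were changed at each fold, all in 1 run with independent normal noise. Of these, 0% of 1.5-fold, 28% of 2-fold, 62% of 3-fold and 76% of 4-fold changes passed adjustment. Recovery depends on how many targets change, so it may be lower where fewer do. A count of 0 past adjustment can therefore miss most changes of 2-fold or less, and some of 3-fold and 4-fold. Each array is 1 fish, so precision is limited by the 3 fish in each group. Between 59.8% and 66.7% of targets lay over background, and array medians were 2100 to 2211. Plots were drawn with matplotlib 3.10.9.

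The gene and the lists were chosen with earlier results of these data known. Named were every oaz1a target and probe, measured polyamine genes, the 10 targets most like oaz1a, on-or-off targets high in the same brains, and 3 genes on each side. Alternatives covered normalization, background, the probe summary, a filter on dim targets, the replicate number as a block and leaving out each array.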

Additional observations from a re-analysis of the deposited data

How the results depend on the processing

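Of 70 values recomputed under other settings, 61 stayed within 1.5 times the reported count, or within 1 SD between replicates for a difference, and 9 did not. For the oaz1a differences that SD was 4 and 3.75 log2 units, so even a change of sign counted as staying. It comes from the spread for which the gene was selected, so these differences could hardly have failed. Both oaz1a targets kept 2 brains over background at the 99th percentile of the random probes. At the median of the random probes, OTTDART00000011806 had 4 brains over it and OTTDART00000011829 kept 2. Leaving out each array moved lead minus control between −2.64 and 1.97 on the first target and between −2.07 and 2.24 on the second, and the median of single probes gave −0.54 and 0.00. On-or-off targets numbered 112 at a gap of at least 2 and 19 at a gap of at least 4, with both oaz1a targets among them each time. The count ranged from 23 to 55 with 1 array left out, the 23 without control replicate 1. In limma the count of targets past adjustment was 0 in every setting, the filter on dim targets included. The count at an unadjusted p under 0.05 was 1696, with a range of 1063 to 3098 when 1 array was left out (1063 without lead replicate 1, 1075 without control replicate 3, 3098 without control replicate 2). The count of polyamine genes was 0 throughout, except 1 without control replicate 2, with a range of 0 to 1. None of the 10 targets most alike by Pearson's r was among the 10 highest by Spearman's rho (0 shared). The pairing by clone name was examined after seeing the data, and without it the polyamine count was 0.

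Groups share replicate numbers. Deviations from the group means correlated at 0.306, 0.0334 and −0.047 for numbers 1, 2 and 3, and 2 of the 6 arrays correlated best with their own number. With 3 fish in each group, these values cannot decide whether the numbers pair the fish. With the replicate number as a block, limma gave 0 targets past adjustment, 2035 at an unadjusted p under 0.05 and 0 polyamine genes. The oaz1a differences stayed at −0.40 and −0.11. Each number has 1 lead and 1 control brain, so the block could not have changed them.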

Other observations

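Lead replicate 2 and control replicate 3, where oaz1a was high, were in different states for several other on-or-off targets. In lead replicate 2 alone, 6 targets lay under background while every other brain was over it. Of these, 5 are targets of hox genes, which pattern the hindbrain and spinal cord, or carry a HOX homologue name. They were counted as targets, not as genes. Both hoxc5a and TC263769, with the homologue name HOXC5, lie on chromosome 23 and ranked the 6 brains in the same order. Whether they are 1 gene was not tested. The share of hox targets among all 38489 was not counted, so 5 of 6 has no share to compare with. For hoxb5b the values were 3228, 150 and 5045 in lead, against 8895, 2753 and 3259 in control. For hoxc5a they were 9739, 287 and 9776 in lead, against 16432, 5717 and 3706 in control. Control replicate 3 had all 6 targets over background. These targets were picked out after their values were seen.

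Other targets were on or off in other sets of brains. The widest gap of all, 6.71 log2 units, belonged to NM_200406, which had no name in the reference table and read 31614, 22319 and 174 in lead, against 27656, 214 and 182 in control. The target TC259759, with the homologue name ALDOA, read 17805, 14670 and 19530 in lead, against 503, 15040 and 928 in control. The authors' deposited table of altered targets lists 0 of the 47 on-or-off targets, against 94 of all 38489 targets. At so small a share, a count of 0 says little about these 47. These targets too were picked after their values were seen.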
